A study of Mus musculus with 24 samples.

Results

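The subject is the nuclear-encoded subunits of the mitochondrial oxidative phosphorylation machinery in mouse lung. Members were taken by gene symbol: symbols starting Ndufa or Ndufb with a digit, Ndufab1, Ndufc, Ndufs, Ndufv, Uqcr, Cox4 to Cox8 or Atp5, plus Sdha, Sdhb, Sdhc and Sdhd. Among 45777 deposited genes, 99 carried such a symbol, and 88 of them averaged at least 1 TPM (a level per transcript length, scaled to a common library sum) over the 24 libraries. By complex, 37 members belonged to complex I, 4 to complex II, 8 to complex III, 18 to complex IV and 17 to complex V, and 4 were near-copies of a subunit gene (Ndufs5-ps, Atp5l2-ps, Ndufb4b and Ndufb4c) whose reads cannot be told from those of the parent gene with certainty. Ndufa4 and Ndufa4l2 were counted with complex IV, as was Cox7a2l. Ndufb1-ps (124 TPM), deposited as a non-coding RNA, was counted with complex I. The member nearest to the minimum from above was Ndufs5-ps at 5.64 TPM, and the nearest symbol left out was Atp5pb-ps at 0.68 TPM.

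Libraries came from lungs of male wild-type C57BL/6J mice, in 6 groups of 4: old sham, old 1 h, old 1 day, young sham, young 1 h and young 1 day. Old mice were 22 to 24 months of age and young mice 8 to 12 weeks. In the reperfused groups the left hilum, the root of the lung where vessels and bronchus enter, was clamped for 60 min, and tissue was taken 1 h or 1 day after the clamp was released. When the sham lungs were taken is not stated, and no label says that each library is a separate animal, so p-values measure the spread between these libraries, which may be partly technical. In bulk tissue, fewer cells of a type and less RNA per cell cannot be told apart.

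Oxidative phosphorylation couples electron transport from NADH and succinate to oxygen with ATP synthesis across the inner mitochondrial membrane. Complexes I, III and IV pump protons, complex II feeds electrons from succinate without pumping, and complex V (ATP synthase) uses the gradient to make ATP. Every complex but the second combines nuclear-encoded subunits with a few encoded on the mitochondrial genome. Reverse electron transport through complex I after succinate build-up is a known source of reactive oxygen species when ischemic tissue is reperfused.

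Library totals ran from 27850677 to 44504824 estimated reads, and all 88 members passed the low-count filter. Mitochondrial-genome genes took 0.776% to 1.53% of the reads in the 8 reperfused young libraries and 2.53% to 4.38% in the other 16. Expression also tracked transcript GC content by group: the rank correlation of a library's deviation with GC content was 0.20 to 0.47 in young 1 h and young 1 day libraries and -0.36 to -0.04 in all others. GC-rich genes therefore read higher in reperfused young lungs as a whole, and counts over all members are given below also with that trend removed per library. Young 1 day replicate 3 had the weakest of these positive trends (0.20), and old sham replicate 4 was high for cardiac muscle genes. Markers of alveolar type 2 cells, 1 of the epithelial cell types of lung, were abundant: all 10 were tested and their summed level was 28288 to 40327 TPM in old sham and 38338 to 47025 TPM in young sham lungs.

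Levels per transcript length ran from 5.64 TPM for Ndufs5-ps to 650 TPM for Cox4i1. Complex IV and V subunits led: Cox4i1, the common form of the regulatory subunit of cytochrome c oxidase, averaged 650 TPM over the 24 libraries. Atp5b, the catalytic beta subunit of the ATP synthase head, averaged 645 TPM and its partner Atp5a1 463 TPM. Complex III was led by Uqcr10 (296 TPM) and Uqcrh (294 TPM), complex I by Ndufa7 (214 TPM) and Ndufb10 (213 TPM), and complex II by its catalytic flavoprotein Sdha (158 TPM) and its iron-sulfur protein Sdhb (147 TPM).

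Summed over all 88 members, in CPM (counts scaled to a common TMM-adjusted library total), old lungs averaged 5389 ± 360.3 CPM after sham operation, 6086 ± 358 at 1 h and 5858 ± 554 at 1 day (SD, n = 4 each). Young lungs averaged 5305 ± 383 CPM after sham operation, 7027 ± 741 at 1 h and 8183 ± 117 at 1 day. The 4 young libraries at 1 day lay between 8042 and 8315 CPM, above all 20 others, of which the highest was a young 1 h library at 7813 CPM. The sham libraries of the ages overlapped, at 5121 to 5916 CPM in old and 4878 to 5781 CPM in young lungs. In TPM the old sums averaged 13840 in sham, 13580 at 1 h and 14250 at 1 day. The young sums averaged 14070, 15160 and 18740 TPM, and the 1 h range (13910 to 16460) overlapped that of sham (13260 to 15150). The rise of the summed level at 1 h thus depended on the scale. Across the 6 groups 79 of 88 members differed, against a background of 83.8% of the 19690 genes tested (edgeR quasi-likelihood F test, Benjamini-Hochberg adjusted over all genes, threshold 0.05, as for every call below). After removal of the GC trend 80 members differed, against 82.2% of genes, so this share was near the background.

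**Figure D1:**
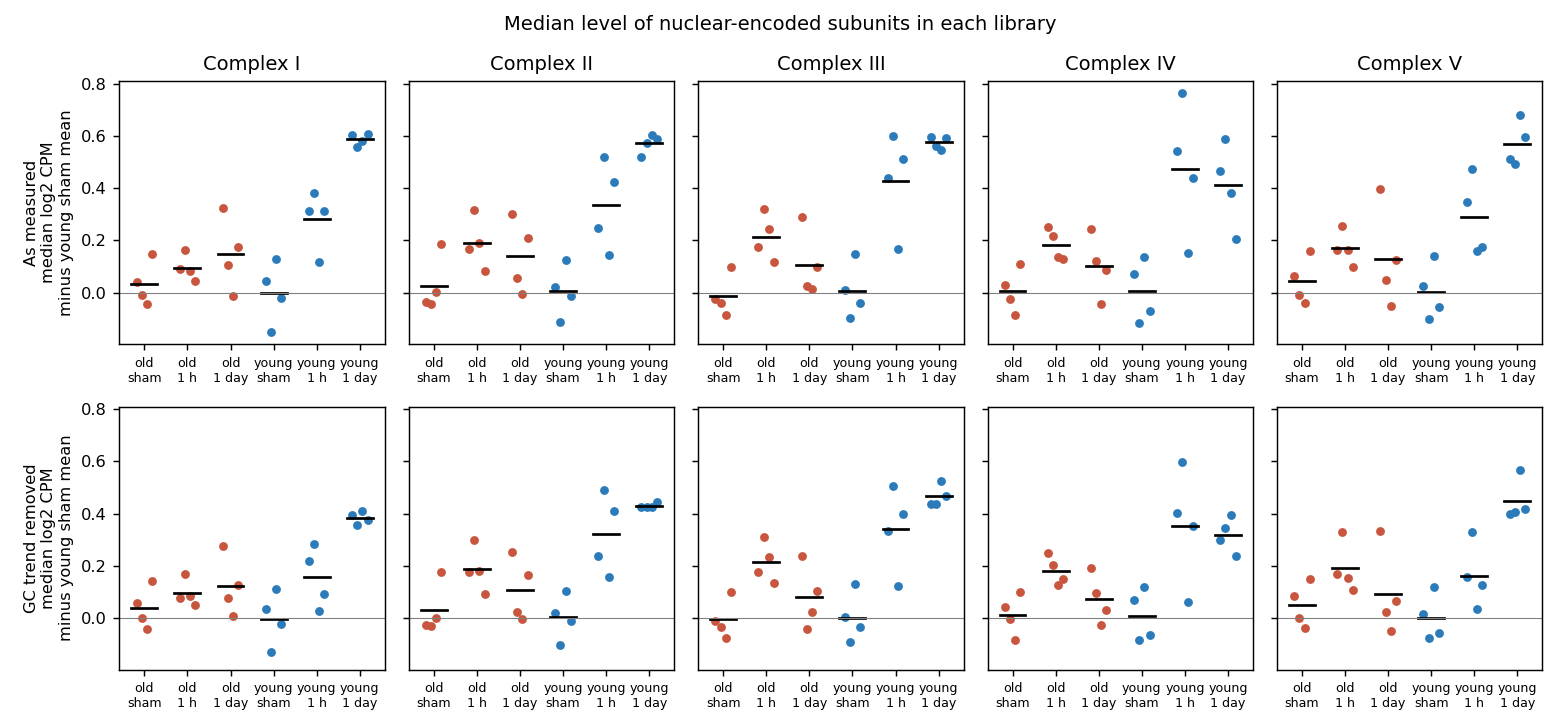
Median level of the nuclear-encoded subunits of complexes I to V in each of 24 libraries, as log2 CPM minus the gene's young sham mean, as measured (top) and with the GC trend removed (bottom); points are libraries, lines are means of 4, old red and young blue. For complexes I, II, III and V the 4 young 1 day libraries sit between 0.49 and 0.68 in the top row, above every sham library.

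In young lungs at 1 day against young sham, rises were called in all 5 complexes. Of 88 members 61 were called higher and 6 lower, where 27.9% of all genes were called higher and 26.0% lower. The median member changed by 0.58 on the log2 scale, against -0.03 for all genes. By complex, 28 of 37 complex I members were called higher and 2 lower, 4 of 4 complex II members higher, 5 of 8 complex III members higher, 9 of 18 complex IV members higher and 3 lower, and 12 of 17 complex V members higher and 1 lower. Of the 4 near-copies 3 were called higher. With the GC trend removed 60 members were called higher and 6 lower, against 24.2% and 24.2% of genes, and 56 of the higher and 5 of the lower calls were shared by both fits. The median then was 0.42. Without young 1 day replicate 3 the counts were 59 higher and 9 lower.

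At 1 h against young sham 44 members were already called higher and 6 lower, where 21.2% of genes were called higher and 20.1% lower. The median member changed by 0.32, against 0.02 for all genes. By complex, 19 higher and 3 lower calls fell in complex I, 4 and 0 in complex II, 5 and 1 in complex III, 7 and 0 in complex IV, 9 and 2 in complex V, and none among the near-copies. In the fit without the GC trend 37 members were called higher and 8 lower, against 17.1% and 17.0% of genes. Both fits shared 32 of the higher and 3 of the lower calls. The comparisons at 1 h and 1 day share the young sham libraries. The 1 h count also turns on the scale: on log2(TPM + 1), where the median of all genes moved by -0.21, 23 members were called higher and 19 lower by limma, and with library medians set equal on that scale 47 and 9.

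**Figure D2:**
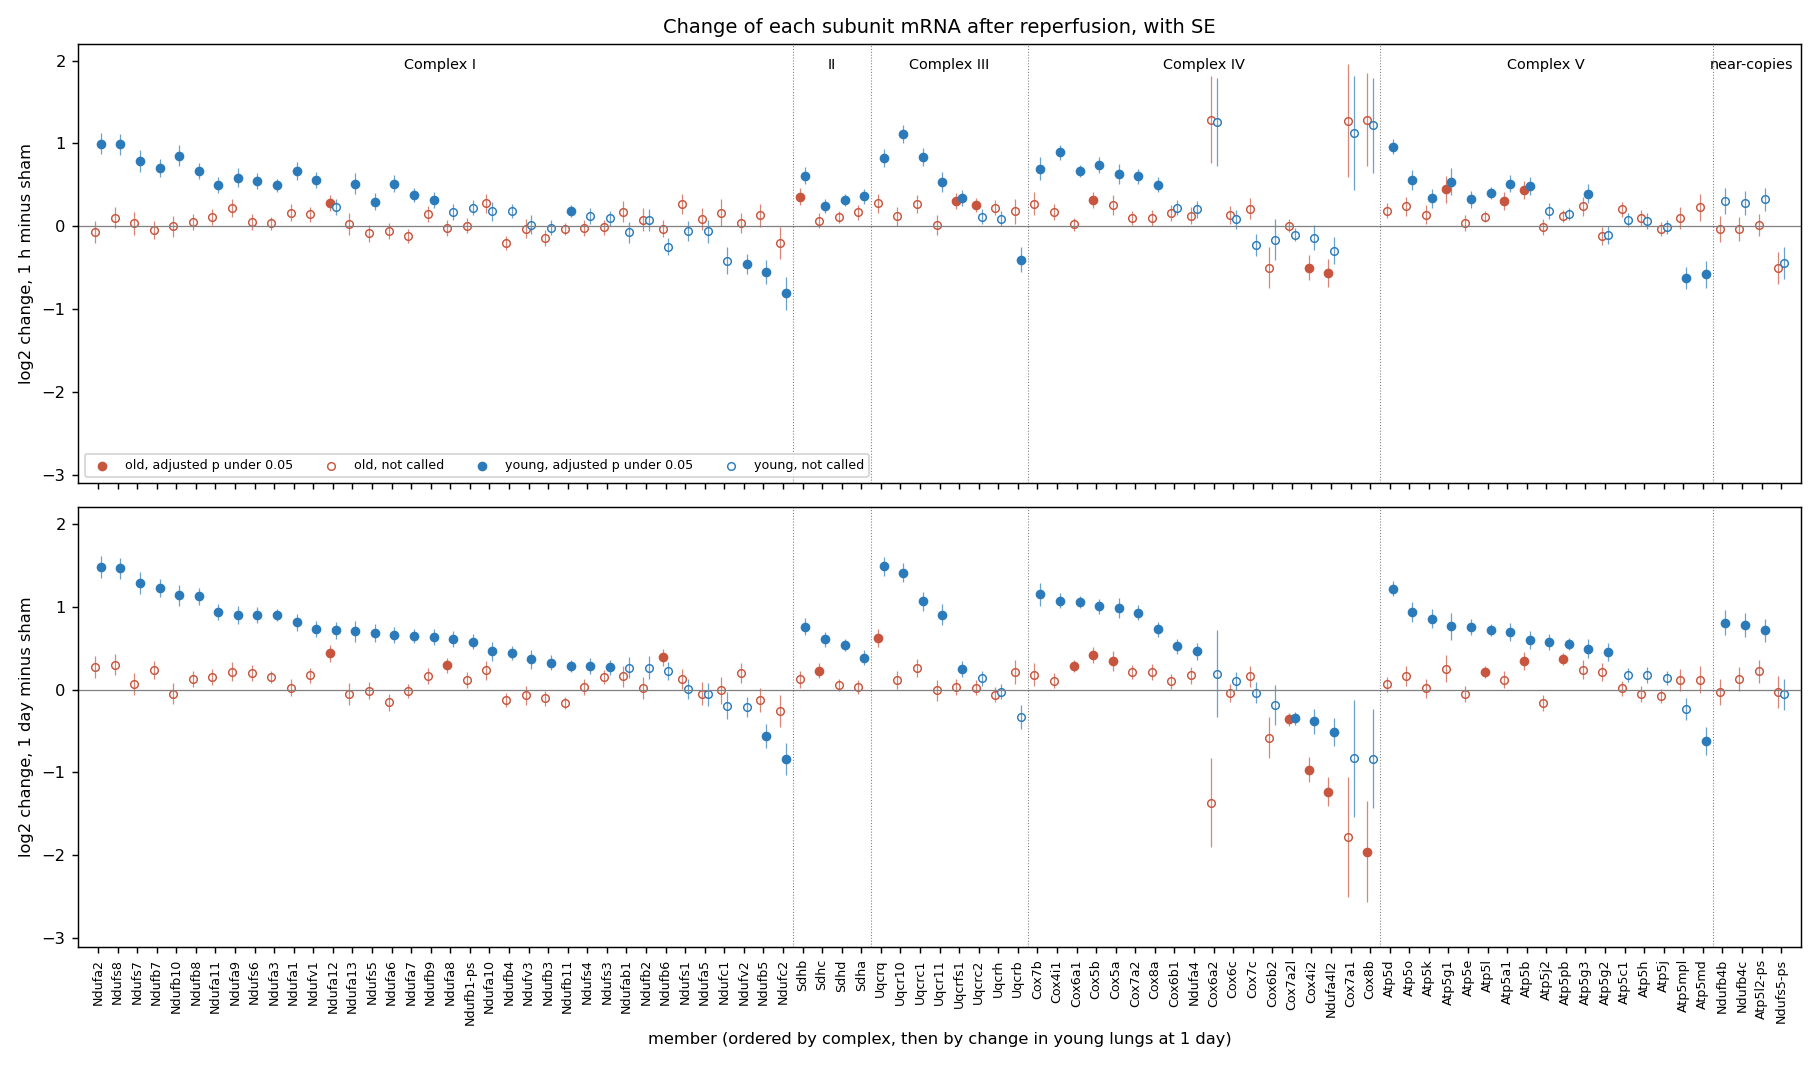
Log2 change of each of 87 of the 88 members against sham of the same age at 1 h (top) and 1 day (bottom), with SE; old red, young blue, filled where the adjusted p is under 0.05. At 1 day 11 of the plotted members are filled above 0 in old and 60 in young lungs.

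In complex I the catalytic core, which carries electrons from NADH through flavin and iron-sulfur clusters to ubiquinone, did not move as one. Ndufs8, an iron-sulfur subunit near the end of that chain, had 106, 89.96, 77.2 and 114 CPM in young lungs at 1 day, against 35.8, 29.4, 40.1 and 34.7 CPM in young sham lungs. All 4 reperfused values lay above all 4 sham values, and the log2 change was 1.47 ± 0.13 (SE; edgeR adjusted p = 5.41e-09). Ndufs7, which lies beside the ubiquinone site, had 122, 95.7, 76.4 and 121 CPM at 1 day, against 43.5, 37.01, 45.5 and 43.98 CPM in young sham lungs. These groups did not overlap either, with a log2 change of 1.29 ± 0.14 (edgeR adjusted p = 7.64e-08). Smaller rises were called for Ndufv1, which binds NADH and flavin (0.73), and Ndufs3 (0.27).

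Ndufs1, the largest core subunit, averaged 62.3 ± 11.2 CPM in young lungs at 1 day and 61.98 ± 3.904 CPM in young sham lungs and was not called. Ndufv2, an iron-sulfur subunit that binds beside Ndufv1, averaged 34.5 ± 6.92 CPM at 1 day and 39.9 ± 3.69 CPM in sham and was not called there, though it fell at 1 h by 0.45 on the log2 scale (edgeR adjusted p = 0.00463). After removal of the GC trend the 1 h change of Ndufv2, whose transcript is 44.5% GC, was -0.14 and was not called. The members of this group other than Ndufs7, Ndufs8 and Ndufv2 were named after their values were seen.

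Among the 30 accessory complex I members 23 were called higher and 2 lower in young lungs at 1 day. Ndufa2, a thioredoxin-like subunit of the matrix arm, had 119, 83.4, 75.3 and 116 CPM at 1 day, against 35.8, 32.5, 35.3 and 37.6 CPM in young sham lungs. No reperfused value overlapped a sham value, the log2 change was 1.48 ± 0.13 (edgeR adjusted p = 8.32e-09), and at 1 h it was 1.00 ± 0.13. Ndufb10, a membrane-arm subunit facing the intermembrane space, had 135, 113, 88.8 and 120.2 CPM at 1 day, against 54.6, 45.9, 56.6 and 50.3 CPM in sham, a change of 1.14 ± 0.13 (edgeR adjusted p = 1.42e-07). Replicate 3 was the lowest of the young 1 day libraries for Ndufs7, Ndufs8, Ndufa2 and Ndufb10, and still above all sham values.

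The 2 accessory subunits that fell were both of the membrane arm. Ndufc2 had 16.7, 22.3, 33.8 and 16.2 CPM in young lungs at 1 day, against 41.5, 37.01, 44.2 and 36.8 CPM in young sham lungs. All 4 values at 1 day were below the lowest sham value, by the least in replicate 3, and the log2 change was -0.84 ± 0.20 (edgeR adjusted p = 0.00110). At 1 h it stood at 30.2, 21.7, 24.4 and 14.7 CPM, a change of -0.81 ± 0.20. Ndufb5 changed by -0.56 ± 0.14 at 1 day and -0.55 ± 0.14 at 1 h, and its 1 day libraries (19.3, 21.6, 32.1 and 20.1 CPM) overlapped the sham libraries (34.4, 32.7, 39.3 and 30.9 CPM) through replicate 3. Both kept calls in the same direction at 1 day once the GC trend was removed, with changes of -0.81 for Ndufc2 and -0.47 for Ndufb5.

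In complex II, succinate dehydrogenase, all 4 subunits were called higher in young lungs at 1 day, and at 1 h as measured. Sdha, which oxidises succinate on its flavin, had 249, 256, 245 and 254 CPM at 1 day, against 188, 177, 209 and 194 CPM in young sham lungs. The groups did not overlap and the log2 change was 0.39 ± 0.09 (edgeR adjusted p = 8.77e-04). Sdhb, which passes the electrons on through iron-sulfur clusters, had 103, 104, 93.5 and 104 CPM at 1 day, against 61.6, 57.8, 64.9 and 55.1 CPM in sham, a change of 0.75 ± 0.10 (edgeR adjusted p = 2.33e-06). The membrane anchors Sdhc and Sdhd changed by 0.61 ± 0.09 and 0.54 ± 0.07. At 1 h the changes were 0.36 for Sdha, 0.61 for Sdhb, 0.25 for Sdhc and 0.32 for Sdhd. At 1 h 3 of the 4 were called higher once the GC trend was removed, Sdhc at 0.03 being the exception, and on log2(TPM + 1) limma called 1 of the 4. The change of Sdhc at 1 h was 0.17 and not called without young 1 h replicate 2, and 0.18, 0.24 and 0.23 and not called without young sham replicates 2, 1 and 4.

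In complex III the small subunits Uqcrq and Uqcr10 rose most. Uqcr10 had 123, 116, 89.99 and 137 CPM in young lungs at 1 day and 91.1, 101, 76.8 and 111 CPM at 1 h, against 45.1, 39.6, 46.98 and 43.9 CPM in young sham lungs. Neither reperfused group overlapped the sham group, and the log2 changes were 1.41 ± 0.11 at 1 day (edgeR adjusted p = 2.06e-09) and 1.11 ± 0.11 at 1 h (edgeR adjusted p = 1.38e-07), the largest called rise of any member at that time. Uqcrq had 129, 106, 102 and 128 CPM at 1 day, against 40.9, 37.7, 48.6 and 38.6 CPM in sham, a change of 1.49 ± 0.11 (edgeR adjusted p = 9.23e-10), the largest of any member at 1 day. Uqcrh, the hinge protein that helps cytochrome c dock, is among the most abundant complex III mRNAs and averaged 72.2 ± 10.3 CPM at 1 day and 73.7 ± 5.48 CPM in sham, with no call. Uqcrb, a ubiquinone-binding subunit, fell at 1 h to 39.1, 38.6, 30.7 and 23.4 CPM, against 43.1, 41.3, 47.1 and 42.8 CPM in sham (-0.40 ± 0.15, edgeR adjusted p = 0.0343). That change was 0.06 and not called with the GC trend removed, and the Uqcrb transcript is 42.2% GC.

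In complex IV several widely expressed forms of the subunits rose. Cox4i1 had 409, 344, 293 and 383 CPM in young lungs at 1 day, against 173, 158, 183 and 165 CPM in young sham lungs. No values overlapped, and the log2 change was 1.07 ± 0.09 (edgeR adjusted p = 5.53e-09), after 0.89 ± 0.09 at 1 h. Rises were also called at 1 day for Cox6a1 (1.06), Cox7a2 (0.93), Cox8a (0.72), Cox6b1 (0.52) and Ndufa4 (0.46), the common partners of tissue or stress isoforms. Cox6c averaged 87.3 ± 5.55 CPM at 1 day and 81.4 ± 6.66 CPM in sham, and Cox7c 44.7 ± 7.73 and 46.01 ± 4.25 CPM; neither of these small widely expressed subunits, named after their values were seen, was called. Falls were called at 1 day for Cox4i2 (-0.38), Ndufa4l2 (-0.51) and Cox7a2l (-0.35). The call of Cox4i2 was lost without any 1 of young 1 day replicates 1, 2 and 3 or young sham replicates 1 and 4, at changes of -0.39 to -0.36.

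In complex V, Atp5d, the delta subunit of the central stalk, had 274, 261, 228 and 289.7 CPM in young lungs at 1 day, against 117, 108, 118 and 109.6 CPM in young sham lungs. The groups were far apart, with a log2 change of 1.22 ± 0.09 at 1 day (edgeR adjusted p = 9.56e-10) and 0.96 ± 0.09 at 1 h. The 1 h change depended on summing transcripts: on the transcript with the highest TPM alone it was -0.053. The 1 day change of Atp5d was not among the named changes set against the alternatives. Its transcript is 61.1% GC, and with the GC trend removed no complex V member rose by more than 0.915 at 1 day or 0.65 at 1 h. Of the 5 members of the F1 head and stalk 4 were called higher at 1 day, among them the catalytic pair Atp5a1 (0.69) and Atp5b (0.60). Of the 3 genes that encode the identical c-ring protein, Atp5g1 (0.76), Atp5g3 (0.50) and Atp5g2 (0.45) were all called higher at 1 day, and at 1 h Atp5g1 and Atp5g3 (0.54 and 0.39), whose calls were lost without young 1 h replicate 2 (0.42 and 0.26). In the fit without the GC trend the 1 day change of Atp5g2 was 0.08 and not called, and with a length trend removed too it was -0.029.

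Falls were called for 2 small membrane subunits of the synthase, Atp5md at both times and Atp5mpl at 1 h. Other small membrane subunits, named after their values were seen, were called higher at 1 day, among them Atp5k (0.85), Atp5l (0.72) and Atp5j2 (0.58). Atp5md, which helps hold synthase dimers together, had 16.8, 16.3, 27.1 and 13.3 CPM in young lungs at 1 day, against 31.9, 25.6, 30.9 and 25.0 CPM in young sham lungs. Replicate 3 lay among the sham values and the other 3 below them; the log2 change was -0.62 ± 0.17 (edgeR adjusted p = 0.00312), after -0.58 ± 0.17 at 1 h. Atp5mpl, another small proteolipid of the membrane part, had 18.01, 16.3, 16.5 and 12.4 CPM at 1 h, against 24.7, 23.6, 26.9 and 22.2 CPM in sham, with no overlap and a change of -0.62 ± 0.14 (edgeR adjusted p = 8.04e-04). It was not called at 1 day. With the GC trend removed Atp5mpl kept its 1 h call (-0.83), whereas the value of Atp5md was -0.25 at 1 day and -0.25 at 1 h with no call at either time.

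**Figure D3:**
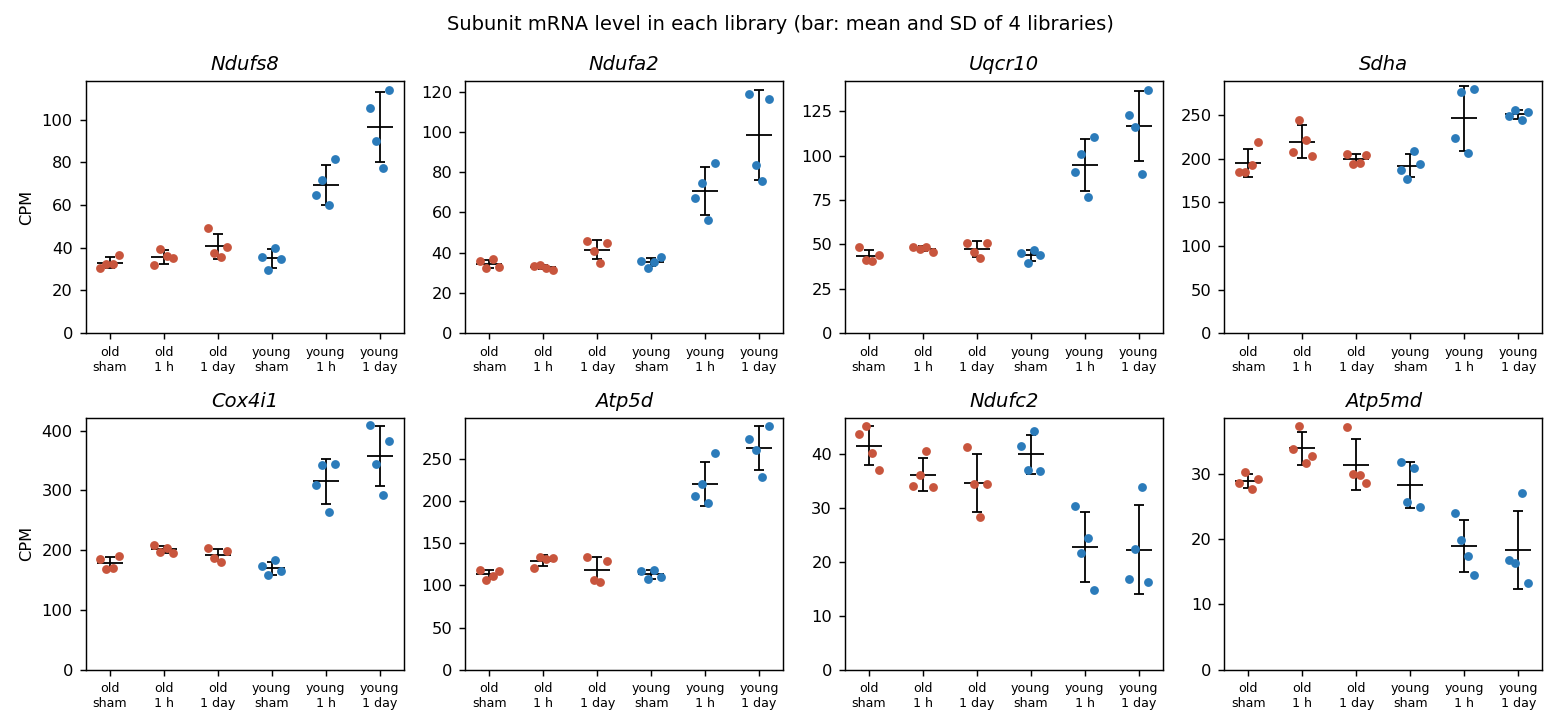
CPM of 8 members in each of 24 libraries; points are libraries, bars the mean and SD of 4, old red and young blue. Ndufs8, Ndufa2, Uqcr10, Cox4i1 and Atp5d stand higher in all 8 reperfused young libraries than in any young sham library, while Ndufc2 and Atp5md stand lower on average.

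Promoter sequence was examined because members of all complexes were called higher together in young lungs. RefSeq start sites (GRCm38.p6) were matched by gene ID for 70 of 88 members, and the 250 bases before each start were searched on both strands for GCGCANGCG (the core bound by nuclear respiratory factor 1, Nrf1), CCGGAAG (bound by the ETS factor Gabpa) and AAGATGGC (bound by YY1), none of which contains another. For the 5 members with more than 1 start, a match before any start counted. A match describes letters and is not a binding site. GCGCANGCG was found for 14 of 70 members (20.0%), against 10.02% of 14285 tested genes and 5.86% of all 27025 genes with a promoter. It was found for 11 of the 52 members called higher in young lungs at 1 day (21.2%) and for 3 of the other 18 (16.7%). CCGGAAG was found for 12 members (17.1%), against 12.6% of tested genes and 7.83% of all, and AAGATGGC for 1 (1.43%), against 2.17% and 1.83%. Shown are Sdha, which has 3 matches to the Nrf1 core, in capitals, Uqcr10 and Ndufs8, among the members that rose most, and Ndufc2, which fell most; the last 3 had no match to any of the motifs in this window. They lie at chr13:74350241-74350490 (minus strand), chr11:4704345-4704594 (minus), chr19:3912775-3913024 (minus) and chr7:97399753-97400002 (plus), and each runs 5′ to 3′ up to the base before the annotated start.
Sdha: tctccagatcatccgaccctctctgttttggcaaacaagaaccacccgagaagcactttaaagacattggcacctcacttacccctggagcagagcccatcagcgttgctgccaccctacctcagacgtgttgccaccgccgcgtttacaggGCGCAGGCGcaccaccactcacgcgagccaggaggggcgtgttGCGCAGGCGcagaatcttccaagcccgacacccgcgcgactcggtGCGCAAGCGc
Uqcr10: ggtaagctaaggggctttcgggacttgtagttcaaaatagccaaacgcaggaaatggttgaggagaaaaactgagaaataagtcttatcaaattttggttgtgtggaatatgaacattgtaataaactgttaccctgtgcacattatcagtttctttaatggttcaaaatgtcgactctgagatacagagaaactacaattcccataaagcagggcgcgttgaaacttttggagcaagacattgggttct
Ndufs8: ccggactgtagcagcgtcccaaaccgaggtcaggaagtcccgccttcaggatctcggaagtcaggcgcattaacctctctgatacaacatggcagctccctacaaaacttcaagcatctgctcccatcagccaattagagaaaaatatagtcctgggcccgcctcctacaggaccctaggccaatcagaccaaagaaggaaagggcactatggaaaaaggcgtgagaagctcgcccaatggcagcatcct
Ndufc2: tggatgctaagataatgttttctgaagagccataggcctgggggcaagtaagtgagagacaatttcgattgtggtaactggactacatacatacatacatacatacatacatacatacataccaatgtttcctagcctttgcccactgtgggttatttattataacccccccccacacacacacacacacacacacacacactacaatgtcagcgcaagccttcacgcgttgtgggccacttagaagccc

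Old lungs changed far fewer of these mRNAs past the threshold. At 1 day against old sham 12 members were called higher and 4 lower, where 20.0% of all genes were called higher and 16.3% lower, and the median member changed by 0.12, against 0.02 for all genes. At 1 h 9 members were called higher and 2 lower, where 12.6% of genes were called higher and 12.6% lower, with a median of 0.11, against 0.00. The shares called higher (12 and 9 of 88) were thus near or below the background. With the GC trend removed 11 were called higher and 8 lower at 1 day, against 19.4% and 17.9% of genes, and 11 higher and 2 lower at 1 h, against 13.4% and 13.6%. Without old sham replicate 4 the counts were 12 higher and 3 lower at 1 day and 14 higher and 2 lower at 1 h. Without old 1 day replicate 1 they were 7 higher and 8 lower at 1 day. The old counts also turn on the scale: on log2(TPM + 1), where the median of all genes moved by -0.15 at 1 h, 0 members were called higher and 11 lower at 1 h, and 8 higher and 9 lower at 1 day. With library medians set equal on that scale the counts were 6 higher and 4 lower at 1 h and 10 higher and 8 lower at 1 day.

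The old lungs' called rises at 1 day were led by Uqcrq, with 70.95, 61.2, 49.6 and 65.2 CPM at 1 day, against 40.2, 39.3, 36.4 and 44.3 CPM in old sham lungs. All values at 1 day lay above all sham values, and the log2 change was 0.62 ± 0.11 (edgeR adjusted p = 1.77e-04). Next came Ndufa12 (0.44), an accessory subunit of the matrix arm, Cox5b (0.41) and Ndufb6 (0.39). At 1 h the named rises were Atp5g1 (0.45), Atp5b (0.44), Sdhb (0.36), Cox5b (0.32) and Atp5a1 (0.31). Of these Atp5b alone kept its call without each library in turn. Without old 1 h replicate 2 the 11 calls at 1 h fell to 4, and Atp5g1 (0.32), Sdhb (0.31), Cox5b (0.28) and Atp5a1 (0.22) lost theirs. Without old sham replicate 1 it was 6 calls, without replicate 2 also 6 and without replicate 3 it was 7, and Cox5b (0.29) and Atp5a1 (0.27) lost theirs without replicate 1. The call of Atp5g1 was lost without any of 14 libraries.

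The same members could be followed in both ages, whose sham groups are separate. At 1 day 11 members were called higher in both ages, which is 11 of the 12 called higher in old lungs and 11 of the 61 called higher in young lungs. Over all genes 13.1% were called higher in both ages at 1 day, which is 65.6% of those called higher in old and 47.1% of those called higher in young lungs. Called lower in both ages were 3, of 4 in old and 6 in young lungs, namely Cox4i2, Ndufa4l2 and Cox7a2l, and 0 went in opposite directions. At 1 h 7 members were called higher in both ages, of 9 in old and 44 in young lungs, and 0 lower in both, where 7.6% and 6.73% of all genes were; 8.89% of all genes were called lower in both ages at 1 day.

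In old sham against young sham lungs 0 of 88 members were called higher and 0 lower by edgeR, where 1.09% of all genes were called higher and 1.22% lower. An unadjusted p under 0.05 was reached by 1 member in edgeR and 1 in DESeq2, and DESeq2 also called 0. With the GC trend removed the counts were again 0 and 0, against 1.15% and 1.3% of genes. Leaving the other 4 groups out of the fit called 1 member lower.

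After reperfusion most members that differed between the ages were lower in old lungs. At 1 day 56 members were called lower and 6 higher in old than in young lungs, where 25.1% of genes were called lower and 25.1% higher, with a median of -0.46, against 0.02 for all genes. By complex 24 lower calls fell in complex I, 4 in II, 4 in III, 12 in IV and 9 in V. At 1 h 33 were called lower and 10 higher, where 21.5% and 20.5% of genes were, with a median of -0.16. After removal of the GC trend 53 were called lower and 5 higher at 1 day, against 20.8% and 21.9% of genes, and 26 lower and 9 higher at 1 h, against 16.1% and 15.4%.

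The largest called gaps at 1 day were in Uqcr10, with 50.99, 45.5, 42.1 and 50.9 CPM in old lungs, against 123, 116, 89.99 and 137 CPM in young lungs. The old values all lay below the young ones, a log2 difference of -1.30 ± 0.11 (edgeR adjusted p = 4.12e-08). Ndufa2 (-1.25), Ndufs8 (-1.25) and Ndufs7 (-1.15) followed, as did Atp5d (-1.15). Higher in old lungs at 1 day was Atp5md, with 37.2, 30.03, 29.8 and 28.7 CPM in old lungs against 16.8, 16.3, 27.1 and 13.3 CPM in young lungs (0.77 ± 0.17, edgeR adjusted p = 5.85e-04). Also higher were Ndufc2 (0.63), Ndufv2 (0.54) and Uqcrb (0.53). The call of Ndufc2 was lost without young 1 day replicate 1 (0.50) or 4 (0.49).

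The difference between the ages' responses was tested as an interaction, the old change minus the young change. For 1 day 49 members were called with a lower change in old lungs and 1 with a higher one, where 15.2% of genes were called in each direction, with a median difference of -0.50, against -0.02 for all genes. For 1 h the counts were 25 and 4, against 9.46% and 8.07% of genes. On log2(TPM + 1), where the median of all genes moved by 0.10 for 1 day, limma called 41 lower and 6 higher for 1 day and 15 lower and 7 higher for 1 h, and with library medians set equal 50 and 2 for 1 day and 25 and 3 for 1 h. With the GC trend removed 42 lower and 0 higher differences were called for 1 day, against 10.6% and 10.5% of genes, and 13 and 1 for 1 h, against 3.12% and 2.12%. In both fits 39 members shared a lower call for 1 day and 11 for 1 h. The largest called differences for 1 day were in Uqcr10 (-1.29 ± 0.16, edgeR adjusted p = 2.41e-05), Ndufs7 (-1.22), Ndufa2 (-1.20) and Ndufb10 (-1.19), and Atp5md was the member with a higher change in old lungs (0.74), a call lost without young 1 day replicate 4 (0.59) and with the GC trend removed (0.39). All 4 complex II members were among the lower ones: Sdha -0.36, Sdhb -0.63, Sdhc -0.38 and Sdhd -0.48. The call of Sdha was lost without old sham replicate 4 (-0.31) or young sham replicate 2 (-0.33), and that of Sdhc with the GC trend removed (-0.17).

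Transcript GC content moved with these values. Over the 83 members with a known GC content (median 52.5%, against 51.0% for all genes tested with one), the log2 change correlated with GC content at Pearson r = 0.439 in young lungs at 1 h and 0.338 at 1 day. For the age difference in the change it was r = -0.561 at 1 h and -0.572 at 1 day. These are descriptions across genes, which are not independent replicates. Removing the per-library trend lowered the rise of GC-rich members, such as Ndufs7 (60.2% GC) whose change in young lungs at 1 day was 0.87 in place of 1.29, and raised that of GC-poor ones, such as Cox7b (42.0% GC), an accessory subunit of complex IV named after its values were seen, at 1.73 in place of 1.15. The largest rises as measured became 1.47 for Uqcrq and 1.34 for Ndufa2. Member transcripts were also short (median 659 bases, against 2140 for all genes tested). The rank correlation of a library's deviation with transcript length was -0.165 to -0.095 in young 1 day and 0.079 to 0.207 in young sham libraries. With GC and length trends removed together, 55 members were called higher and 9 lower in young lungs at 1 day, with a median of 0.34. For the age difference at 1 day 40 lower and 2 higher differences were then called, with a median of -0.34. Whether the GC and length trends arose in the tissue or in the libraries was not tested.

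**Figure D4:**
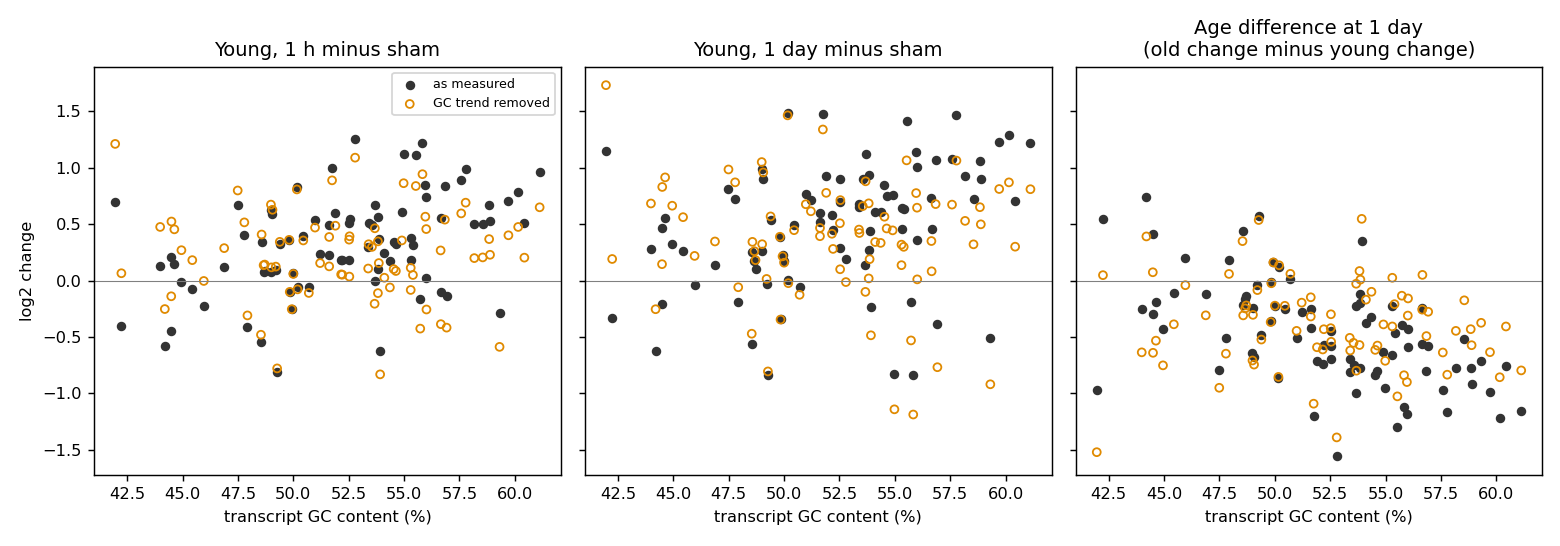
Log2 change of 83 members against transcript GC content (%) in young lungs at 1 h and 1 day and for the age difference at 1 day (old change minus young change); filled points as measured, open points with the GC trend removed. As measured the correlation is 0.439, 0.338 and -0.572. With the trend removed most members in the middle panel still lie above 0. Over all 88 members, including those without a GC content and so not plotted, 60 were then called higher and 6 lower.

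Complex IV has isoforms used in some tissues or under stress. Of the 6 members of this kind 0 were called higher and 2 lower in young lungs at 1 day, and 0 higher and 3 lower in old lungs at 1 day. Over all genes 26.0% were called lower in young and 16.3% in old lungs, so the young count was near the background. The counts were 0 higher and 2 lower in young and 0 higher and 6 lower in old lungs at 1 day once the GC trend was removed. The shares of all genes called lower were then 24.2% and 17.9%. Cox6b2, 1 of the 6, was called lower in old than in young lungs at 1 day (-0.66). That call was lost without old 1 day replicate 3 or young 1 day replicate 1 or 3. Cox4i2, the form of subunit 4 that is common in lung and oxygen-sensing cells, had 17.2, 18.2, 13.4 and 19.3 CPM in old lungs at 1 day, against 34.9, 33.9, 27.8 and 36.6 CPM in old sham lungs. The groups did not overlap, with a log2 change of -0.97 ± 0.15 (edgeR adjusted p = 5.26e-05). At 1 h the old change was -0.50 ± 0.15, a call lost without old 1 h replicate 4 (-0.39). Ndufa4l2, the hypoxia-induced relative of Ndufa4, had 10.4, 10.9, 6.84 and 10.8 CPM in old lungs at 1 day, against 23.4, 24.4, 19.7 and 24.1 CPM in old sham lungs, a change of -1.23 ± 0.17 (edgeR adjusted p = 1.07e-05), after -0.56 ± 0.17 at 1 h. At 1 day both were lower in old than in young lungs, by log2 differences of -0.96 ± 0.15 for Cox4i2 and -1.03 ± 0.17 for Ndufa4l2. Young lungs at 1 day had 32.4, 31.9, 32.3 and 35.98 CPM of Cox4i2, against 45.6, 40.8, 42.2 and 44.3 CPM in young sham lungs, and 18.1, 21.4, 19.6 and 20.7 CPM of Ndufa4l2, against 28.0, 27.2, 27.1 and 31.4 CPM in sham. In young lungs too no values at 1 day reached those of sham.

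As a share of TPM within its pair, Cox4i2 made up 16.0 ± 1.23% of Cox4i2 plus Cox4i1 in old sham lungs, 10.6 ± 1.87% at 1 h and 8.26 ± 0.971% at 1 day (SD, n = 4 each). In young lungs the shares were 20.7 ± 1.11%, 11.4 ± 2.58% and 8.75 ± 1.08%. In young lungs at 1 day Cox4i1 was called higher and Cox4i2 lower, while in old lungs at 1 day Cox4i2 alone of the pair was called. Over the 24 libraries the gene most like Cox4i2 in log2(TPM + 1) was Ndufa4l2 (Pearson r = 0.975), then Emid1 (0.947), Egflam (0.92), Npnt (0.918) and Fam162b (0.911). For Ndufa4l2 they were Cox4i2, Emid1, Tmem178 (0.931), Npnt (0.924) and Cd99l2 (0.92). The libraries share their groups, so these are descriptions. Pericyte markers were counted beside them, and of 11 markers 5 fell and 1 rose in old lungs at 1 day. Over all genes 16.3% were called lower and 20.0% higher there. In old against young lungs at 1 day 7 were lower and 1 higher, where 25.1% of all genes were called each way. The mean sum of these markers was lowest at 1 h in young lungs (386 TPM, against 420 TPM at 1 day). In old lungs it was 293 TPM at 1 h and 278 TPM at 1 day. Their summed level was 349 to 438, 222 to 354 and 229 to 295 TPM in old sham, 1 h and 1 day lungs and 588 to 658, 336 to 449.5 and 379 to 469 TPM in young ones, with no marker at 0 in a whole group. Their part in the isoforms' changes was not tested.

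Cox6a2, Cox7a1 and Cox8b, the heart and skeletal muscle isoforms, varied widely within groups. Cox8b had 1.34, 0.159, 0.7003 and 0.519 CPM in old lungs at 1 day, against 1.97, 1.49, 2.03 and 5.13 CPM in old sham lungs, where replicate 4 stood apart. The log2 change was -1.96 ± 0.61 (edgeR adjusted p = 0.01602), and it was -1.43 and not called without old sham replicate 4. Cox6a2 had 29.7, 65.8, 41.3 and 35.05 CPM in old lungs at 1 h, against 10.3, 11.1, 12.2 and 36.7 CPM in old sham lungs, and was called among the 6 groups but, as measured, not between any pair of groups set against each other here. Cox7a1 ranged from 0.127 to 14.2 CPM over all libraries and was likewise called among the 6 groups but not between any such pair. Both were called lower in old lungs at 1 day with the GC trend removed, Cox6a2 at -1.41 (edgeR adjusted p = 0.0415, against 0.0532 as measured) and Cox7a1 at -1.85 (edgeR adjusted p = 0.0471, against 0.0599). The genes most like them were of striated muscle: Ldb3 for Cox7a1 (r = 0.973), Csrp3 for Cox8b (0.968) and Eef1a2 for Cox6a2 (0.959). The 12 cardiac-type muscle markers summed to 803 to 4532, 2893 to 6083 and 89.2 to 639 TPM in old sham, 1 h and 1 day lungs and to 426 to 1781, 1034 to 4728 and 97.3 to 1338 TPM in young ones. Of these markers 4 were called lower and 0 higher in old lungs at 1 day, against 16.3% and 20.0% of all genes. None of the 12 was at 0 in a whole group. The 10 skeletal muscle markers summed to 18.7 to 86.3, 63.9 to 156 and 6.99 to 16.03 TPM in old sham, 1 h and 1 day lungs and to 15.97 to 60.02, 33.2 to 178 and 6.02 to 47.2 TPM in young ones, with the fast myosin Myh4 at 0 in every old library and in young 1 h libraries, and with 2 to 4 of the markers at 0 in a whole group. Of the 6 of them tested 2 rose in old and 2 in young lungs at 1 h, where 12.6% and 21.2% of all genes were called higher. Cox7a1 and Cox8b are also known from brown fat, and the 8 brown and white fat markers summed to 8.801 to 144, 147 to 297 and 6.99 to 1649.8 TPM in old sham, 1 h and 1 day lungs and to 18.9 to 495, 9.36 to 761 and 6.73 to 328 TPM in young ones. Elovl3, a brown fat marker, was at 0 in all old sham, old 1 day and young 1 h libraries, and Ucp1, which defines brown fat, in all young 1 h libraries. The part of these 3 marker lists in the isoforms' values was not tested.

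**Figure D5:**
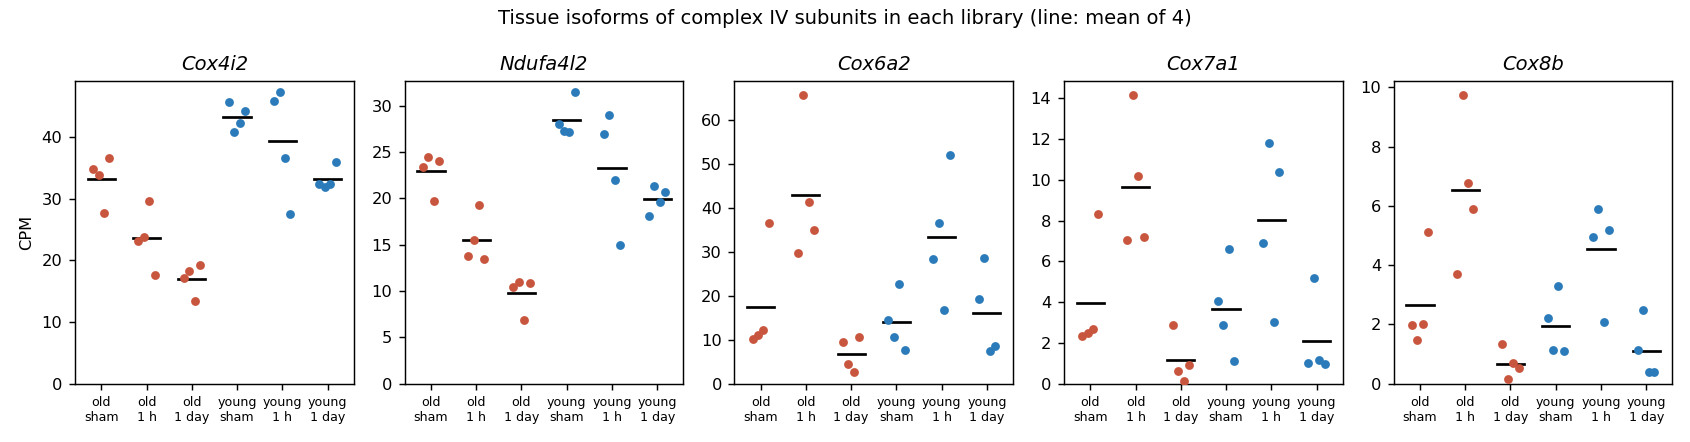
CPM of 5 tissue isoforms of complex IV subunits in each library; points are libraries, lines means of 4, old red and young blue. Cox4i2 and Ndufa4l2 have their lowest group means in old lungs at 1 day; Cox6a2, Cox7a1 and Cox8b spread widely within groups, with old sham replicate 4 above the other 3.

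Subunit mRNAs encoded on the mitochondrial genome fell in young lungs as measured. Of 13 such mRNAs 13 were called lower and 0 higher at 1 day against young sham, with a median log2 change of -1.58, and 12 lower and 0 higher at 1 h. Over all genes 26.0% were called lower at 1 day and 20.1% at 1 h. In old lungs 3 were called lower at 1 day and 0 at 1 h, with 0 higher at either time, where 16.3% and 12.6% of all genes were called lower. In the fit without the GC trend 10 were lower and 0 higher in young lungs at 1 day, and 5 lower and 3 higher at 1 h. Of all genes 24.2% were then called lower at 1 day, and 17.0% lower and 17.1% higher at 1 h. In complex V the ratio of summed nuclear to summed mitochondrial subunit CPM was 0.718 ± 0.113, 0.811 ± 0.0505 and 0.978 ± 0.139 in old sham, 1 h and 1 day lungs and 0.8902 ± 0.0466, 3.397 ± 1.12 and 5.69 ± 1.95 in young ones (SD, n = 4 each). In complex I it was 0.123 ± 0.0164, 0.125 ± 0.0119 and 0.169 ± 0.0196 in old lungs and 0.148 ± 0.00905, 0.466 ± 0.103 and 0.827 ± 0.258 in young ones. No reperfused young library overlapped a young sham library in either ratio. Both ratios are of values as measured and were not computed with the GC trend removed.

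Other mitochondrial gene groups were counted beside the subunits. Over all genes 27.9% were called higher and 26.0% lower in young lungs at 1 day, and 21.2% and 20.1% at 1 h. In old lungs these shares were 20.0% and 16.3% at 1 day and 12.6% and 12.6% at 1 h. Of 46 assembly factors of the complexes 22 rose and 7 fell in young lungs at 1 day and 5 rose and 16 fell at 1 h, whereas in old lungs 14 rose and 1 fell at 1 day and 1 rose and 8 fell at 1 h. Of 81 tested subunits of the mitochondrial ribosome 57 rose and 3 fell in young lungs at 1 day and 19 rose and 20 fell at 1 h, and in old lungs 29 rose and 1 fell at 1 day and 1 rose and 13 fell at 1 h. Of 13 enzymes of the tricarboxylic acid cycle 9 rose and 2 fell in young lungs at 1 day and 8 rose and 1 fell at 1 h, and in old lungs 3 rose and 0 fell at 1 day and 4 rose and 0 fell at 1 h. Of 8 electron, ADP and phosphate carriers 3 rose and 0 fell at 1 day and 5 rose and 0 fell at 1 h in young lungs, and in old lungs 4 rose and 0 fell at both times. On log2(TPM + 1) by limma, 15 were called higher and 12 lower among the assembly factors in young lungs at 1 day and 0 were called higher and 27 lower at 1 h, and for the mitochondrial ribosome 42 were called higher and 9 lower at 1 day and 5 were called higher and 41 lower at 1 h. With the GC trend removed 27 rose and 3 fell and 1 rose and 13 fell among the assembly factors at those times, and 54 rose and 1 fell and 13 rose and 19 fell for the ribosome.

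Of 15 regulators of mitochondrial biogenesis 8 rose and 3 fell in young lungs at 1 day and 6 rose and 4 fell at 1 h, and in old lungs 4 rose and 1 fell at 1 day and 3 rose and 3 fell at 1 h. The old counts were near the shares of all genes called (20.0% higher and 16.3% lower at 1 day, 12.6% each way at 1 h). Ppargc1a, a coactivator of respiratory genes, changed by -1.36 in young lungs at 1 day and -1.01 in old lungs at 1 day. Nrf1, which binds the first motif above, rose by 0.56 in young lungs at 1 day and was not called in old lungs. Tfam, the factor that packages and transcribes mitochondrial DNA, was not called in either. Of 18 hypoxia-inducible genes 7 rose and 1 fell at 1 day and 10 rose and 0 fell at 1 h in young lungs, and in old lungs 8 rose and 1 fell at 1 day and 9 rose and 2 fell at 1 h.

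Markers of other cells moved in the same comparisons, for which the shares of all genes called are those given above. All 10 cycling-cell markers rose in young lungs at 1 day (median 1.99), and their summed level was 261 to 491 TPM there, against 118 to 154 TPM in young sham lungs. In old lungs 3 of the 10 rose at 1 day, to a sum of 132 to 251 TPM, against 119.6 to 143 TPM in old sham lungs. Monocyte and macrophage markers rose in both ages at 1 day, 9 of 10 in old and 9 of 10 in young lungs, with summed levels of 1916 to 2849 TPM in old lungs at 1 day, 1530.3 to 2962 TPM in young lungs at 1 day, 628 to 772 TPM in old sham and 504 to 541 TPM in young sham lungs. Of 10 neutrophil markers 8 rose in old and 1 in young lungs at 1 day (on log2(TPM + 1) by limma, 3 and 0), with sums of 1977 to 20301 TPM in old lungs at 1 day, 1414 to 2632 TPM in young lungs at 1 day, 3039 to 3902 TPM in old sham and 1479.6 to 2836 TPM in young sham lungs. Of 10 alveolar type 2 markers 8 were lower in old than in young lungs at 1 day, at sums of 15175 to 25458 TPM in old and 38086 to 48902 TPM in young lungs. In sham lungs these sums were 28288 to 40327 TPM in old and 38338 to 47025 TPM in young lungs, and in old lungs at 1 h 14066 to 24451 TPM. Within young lungs 4 of these 10 rose and 0 fell at 1 day. No marker of these lists was at 0 in a whole group. Their part in the subunits' changes was not tested.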

How the data were processed

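Lung RNA of 24 libraries, 4 in each of 6 groups taken from the sample titles, was analysed. The authors deposited values for 129299 RefSeq transcripts (build GRCm38/mm10), belonging to 45777 genes, for which the submitters' processing notes name HISAT2 and StringTie (versions not given in the sources used here). The deposited read numbers are estimated counts (an expected count per transcript), not tallies: 97.1% to 97.76% of values under 50 equalled FPKM times length times 1 constant, rounded up. The authors' deposited FPKM was used only for that check. The deposited TPM, which the authors brought to equal library sums, gave the levels, the member rule and an alternative.

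Counts were summed to genes, and 19690 genes passed filterByExpr (minimum count 10). edgeR 4.0.16 (R 4.3.3) fitted 6 group means with TMM normalisation and robust quasi-likelihood dispersion, and p-values were Benjamini-Hochberg adjusted over all genes tested. SE is the log2 change divided by the square root of F. The GC trend was removed as a lowess (span 0.3) of each library's log2 CPM deviation against transcript GC content, known for 83 members; the other 5 took the library's median fitted trend. Alternatives were DESeq2 1.42.0, limma 3.58.1 on log2(TPM + 1), other filters, other transcripts and each library left out. The model was tested on simulated counts. Python 3.11.15 drew the figures.

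Members and lists were chosen with earlier results of these data known. Named members were, per comparison, the 4 called members with the largest change in each direction, the 2 most abundant of each complex, isoform pairs and all of complex II. Others are said to be chosen after their values were seen. For 1 member no values are reported here; it is in the counts and sums. The labels give no batch. Replicate numbers did not pair libraries: over 60 same-numbered pairs the mean correlation of deviations was -0.0113 (-0.300 to 0.275, 6 over 0.1), against 0.00377 over 180 other pairs.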

Additional observations from a re-analysis of the deposited data

Results flagged for a closer look

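In 246 groups of 4 libraries over 41 named genes, 20 had a library far from the other 3 by Dixon's criterion, where chance gives about 1 in 20 groups. Of these, 8 were high values in old sham replicate 4: Atp5a1 (529 CPM, others 424 to 428), Atp5g1 (52.3 CPM, others 33.8 to 36.7), Cox5b (65.6 CPM, others 55.5 to 55.7), Cox6a2 (36.7 CPM, others 10.3 to 12.2), Cox7a1 (8.303 CPM, others 2.34 to 2.696), Cox8b (5.13 CPM, others 1.49 to 2.03), Ndufa12 (28.9 CPM, others 22.7 to 23.5) and Sdhb (73.4 CPM, others 56.4 to 59.3). That library also held the highest cardiac muscle marker sum of its group, and its part in these values was not tested. High values in old 1 day replicate 1 were Atp5md (37.2 CPM, others 28.7 to 30.03), Cox8a (119 CPM, others 105 to 106) and Uqcrh (82.9 CPM, others 69.1 to 70.5).

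In young 1 day libraries, replicate 3 was high for Ndufc1 (13.7 CPM, others 8.72 to 9.26) and low for Sdhb (93.5 CPM, others 103 to 104). Replicate 4 was high for Cox4i2 (35.98 CPM, others 31.9 to 32.4) and low for Cox6b2 (4.33 CPM, others 5.83 to 6.01), and replicate 2 was high for Cox7a1 (5.18 CPM, others 0.986 to 1.18). In young 1 h libraries, replicate 4 was high for Ndufs7 (95.1 CPM, others 64.6 to 67.8) and replicate 3 low for Cox6a1 (149 CPM, others 163 to 165). In old lungs, 1 day replicate 3 was low for Ndufa4l2 (6.84 CPM, others 10.4 to 10.9) and sham replicate 3 low for Atp5mpl (24.5 CPM, others 26.7 to 27.01).

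The change against sham differed between old and young lungs, by the interaction in edgeR, for 29 members at 1 h and 50 at 1 day. As old change minus young change on the log2 scale, those with a higher change in old lungs at 1 h were Atp5md (0.81), Atp5mpl (0.72), Ndufb5 (0.68) and Ndufv2 (0.49). The largest lower ones were Ndufb10 (-0.85), Ndufs8 (-0.88), Uqcr10 (-0.99) and Ndufa2 (-1.07). With the GC trend removed 1 of the 4 higher and 11 of the 25 lower calls at 1 h remained, and 0 higher calls fell in complex I. The call of Ndufv2 was also lost without any 1 of 11 libraries, and that of Ndufb5 without young 1 h replicate 4 (0.59). At 1 day the higher one was Atp5md (0.74), and the largest lower ones were Ndufb10 (-1.19), Ndufa2 (-1.20), Ndufs7 (-1.22) and Uqcr10 (-1.29).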

How the results depend on the processing

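Of 139 named log2 changes, recomputed to 5143 values under the alternatives, 4859 values kept direction and call, 281 kept direction without a call and 3 had the opposite direction. The 3 were Atp5d in young lungs at 1 h on the highest transcript only (-0.053), Sdhc in young lungs at 1 h on log2(TPM + 1) (-0.039) and Atp5g2 in young lungs at 1 day with GC and length trends removed (-0.029). Called under every alternative were 79 of the 139, and 117 were called without each library in turn. The replicate block kept 133 of 139 calls, and its counts of members were 50 for young 1 h, 67 for young 1 day, 9 for old 1 h and 15 for old 1 day, all within 1.5 times of those without it.

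In old lungs at 1 h, with 11 members called, 11 were called on log2(TPM + 1) but all lower, 7 with no low-count filter and 5 on the highest transcript only. In old lungs at 1 day, with 16 called, 17 were called on log2(TPM + 1), of which 9 were lower, and 15 without old 1 day replicate 1, of which 8 were lower. Old against young sham gave 1 call with only the groups compared in the fit. The age difference at 1 h, with 29 called, gave 14 with the GC trend removed, 19 with GC and length trends removed, 14 with the replicate block and GC trend removed together, and 14 on the highest transcript only. The cause of these shifts was not tested.

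Leaving out each library in turn gave 43 to 52 called members for young 1 h, 64 to 68 for young 1 day, 4 to 16 for old 1 h, 12 to 18 for old 1 day and 0 each time for old against young sham. It gave 42 to 50 for old against young at 1 h, 59 to 72 at 1 day, 21 to 33 for the age difference at 1 h, 47 to 55 at 1 day and 76 to 83 among the 6 groups. The removal of GC and length trends together and the equal library medians were chosen after seeing the data. Depth limits Cox8b, which read below 6 CPM in every old sham and old 1 day library.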
